A study of Mus musculus with 18 samples.

Results

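The levels of 10 marker genes of pericytes were examined in Thy1+ cells sorted from mouse hearts, after saline and after isoproterenol (ISO), in 3 inbred strains. The genes, taken by name, were Pdgfrb, Rgs4, Rgs5, Cspg4, Vtn, Des, Kcnj8, Abcc9, Notch3 and Heyl. All 10 were found among the 53342 gene identifiers of each library, and all 10 passed the filter on low counts that left 15762 genes to test. The lowest count of any of them in any library was 249, for Abcc9 in C3H/HeJ sham replicate 1. RNA was sequenced from C57BL/6, C3H/HeJ and KK/HlJ hearts. Pumps had been implanted; the sham groups were given saline, and the ISO groups isoproterenol, an agonist of beta-adrenergic receptors, with hearts taken at day 14 or day 21. No genotype beyond the strain, and no age, is given for any group. Cardiac fibroblasts carry the surface protein Thy1, by which the cells were sorted, and the population is written Thy1+ HE or Thy1+HE- with no expansion of HE. There were 9 groups with 2 libraries each, and the sham libraries, which carry no day, served both days. The labels leave unsaid whether libraries of a group are separate animals. The p-values therefore reflect only how far these libraries spread, and that spread may be technical.

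Pericytes lie along capillaries and small vessels inside the basement membrane that they share with endothelial cells. Endothelial cells recruit them by secreting platelet-derived growth factor B, which acts on the receptor encoded by Pdgfrb, and Notch3 receives signals from ligands on neighbouring cells and switches on target genes such as Heyl. In the heart these cells help to set capillary tone, and their genes are largely shared with vascular smooth muscle. In sorted bulk cells, fewer pericytes and less of these RNAs per cell cannot be told apart.

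Promoters of both neighbouring pairs and of Vtn, whose ISO libraries stood below sham more often than those of most genes, are shown because the text compares how these genes varied together. They are the bases upstream of the first annotated start, from RefSeq on GRCm38.p6 (mm10), written 5′ to 3′ on the strand of the gene. Of the 10 genes, 8 had an entry. Capitals mark matches on either strand to TGGGAA, the core that the Notch partner RBPJ binds, and to CATTCC, the core that TEAD factors bind; the matches overlap as TGGGAATG.
Vtn, chr11:78498870-78499090, plus strand: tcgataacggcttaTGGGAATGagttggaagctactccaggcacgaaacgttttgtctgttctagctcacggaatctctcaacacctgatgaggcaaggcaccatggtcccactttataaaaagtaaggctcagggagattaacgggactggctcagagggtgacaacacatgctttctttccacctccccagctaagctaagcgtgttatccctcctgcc
Abcc9, chr6:142702316-142702524, minus strand: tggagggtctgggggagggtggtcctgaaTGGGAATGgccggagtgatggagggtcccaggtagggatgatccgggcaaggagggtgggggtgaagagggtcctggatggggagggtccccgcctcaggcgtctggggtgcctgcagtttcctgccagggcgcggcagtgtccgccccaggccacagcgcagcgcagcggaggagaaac
Kcnj8, chr6:142571615-142571864, minus strand: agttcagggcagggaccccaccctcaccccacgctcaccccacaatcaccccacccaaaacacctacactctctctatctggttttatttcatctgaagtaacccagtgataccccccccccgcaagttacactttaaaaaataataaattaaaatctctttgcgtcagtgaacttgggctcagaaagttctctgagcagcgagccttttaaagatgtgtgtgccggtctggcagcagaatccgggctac
Rgs4, chr1:169747643-169747892, minus strand: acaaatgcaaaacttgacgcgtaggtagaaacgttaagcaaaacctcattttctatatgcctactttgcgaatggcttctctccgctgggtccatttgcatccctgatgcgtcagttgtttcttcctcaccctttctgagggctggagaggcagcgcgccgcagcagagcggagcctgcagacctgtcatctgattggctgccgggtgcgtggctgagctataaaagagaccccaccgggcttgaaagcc
Rgs5, chr1:169655251-169655500, plus strand: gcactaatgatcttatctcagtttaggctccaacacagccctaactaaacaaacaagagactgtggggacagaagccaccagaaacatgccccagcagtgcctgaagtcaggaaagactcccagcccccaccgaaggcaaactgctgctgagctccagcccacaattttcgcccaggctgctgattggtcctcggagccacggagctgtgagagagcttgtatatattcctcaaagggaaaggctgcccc
In windows of 250 bases before the start, TGGGAA was found in 2 of the 8 promoters (Vtn and Abcc9) and in 21.6% of 32817 promoters of all genes. CATTCC was found in the same 2 promoters, within the same letters, and in 12.6% of all. CAGCTG, an E-box, was found in 2 of the 8 (Des, and Abcc9 outside the bases shown) and in 13.0% of all, and the CArG box of smooth muscle genes in 0 of the 8 and 1.47% of all. Neighbouring genes did not share these letters: Abcc9 had matches to 3 of the motifs and Kcnj8 to 0, and Rgs4 and Rgs5 both had 0. A match is a description of letters and not of binding.

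Total counts ran from 7230741 to 26280685 per library. The 2 libraries of each group differed by far more than counting noise. C3H/HeJ sham replicate 1 and replicate 1 of each of the 3 KK/HlJ groups had the 4 lowest median correlations with the other libraries, 0.811 to 0.848 against 0.862 to 0.912 for the rest. The main results that rest on these 4 libraries are also given without them; leaving them out leaves 1 library in each of those groups, whose spread is then assumed to be that of the other groups. Genes of resting fibroblasts dominated. The 15 listed genes, led by Gsn (an actin-severing protein) and Dcn (a matrix proteoglycan), summed to between 92540 and 150500 CPM (counts relative to edgeR's effective library size), whereas the 10 pericyte genes summed to between 1271 and 6385 CPM.

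In mm10 coordinates the 10 genes occupy chromosome 18, 61045150 to 61085061 (Pdgfrb), chromosome 1, 169741477 to 169747642 (Rgs4), 169655501 to 169695813 (Rgs5) and 75360329 to 75368579 (Des), chromosome 9, 56865033 to 56899870 (Cspg4), chromosome 11, 78499091 to 78502324 (Vtn), chromosome 6, 142564837 to 142571614 (Kcnj8) and 142587862 to 142702315 (Abcc9), chromosome 17, 32120820 to 32166852 (Notch3), and chromosome 4, 123233556 to 123249875 (Heyl). Each is annotated as protein coding. Kcnj8 and Abcc9 are neighbours with 16.247 kb and 0 annotated genes between them, and Rgs4 and Rgs5 are neighbours with 45.663 kb and 0 genes between them. Des, Abcc9 and Notch3 share exon bases with an antisense gene. The antisense genes of Des and Abcc9 had 0 counts in every library and that of Notch3 had 0 to 29.

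Per kilobase of exon, Rgs5 and Pdgfrb had the highest median levels over the 18 libraries, 116 and 101 CPM per kb. Vtn (86.0 CPM per kb), Kcnj8 (70.5), Heyl (43.1), Notch3 (26.3), Rgs4 (24.8), Des (17.6) and Abcc9 (12.3) followed, and Cspg4 (7.56) was lowest. The ranges of neighbours in this order overlapped. Rgs5 spanned 36.3 to 416 CPM per kb and Abcc9 2.34 to 46.9 CPM per kb, whereas Heyl spanned 20.8 to 72.3 and Pdgfrb 44.7 to 188 CPM per kb.

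**Figure D1:**
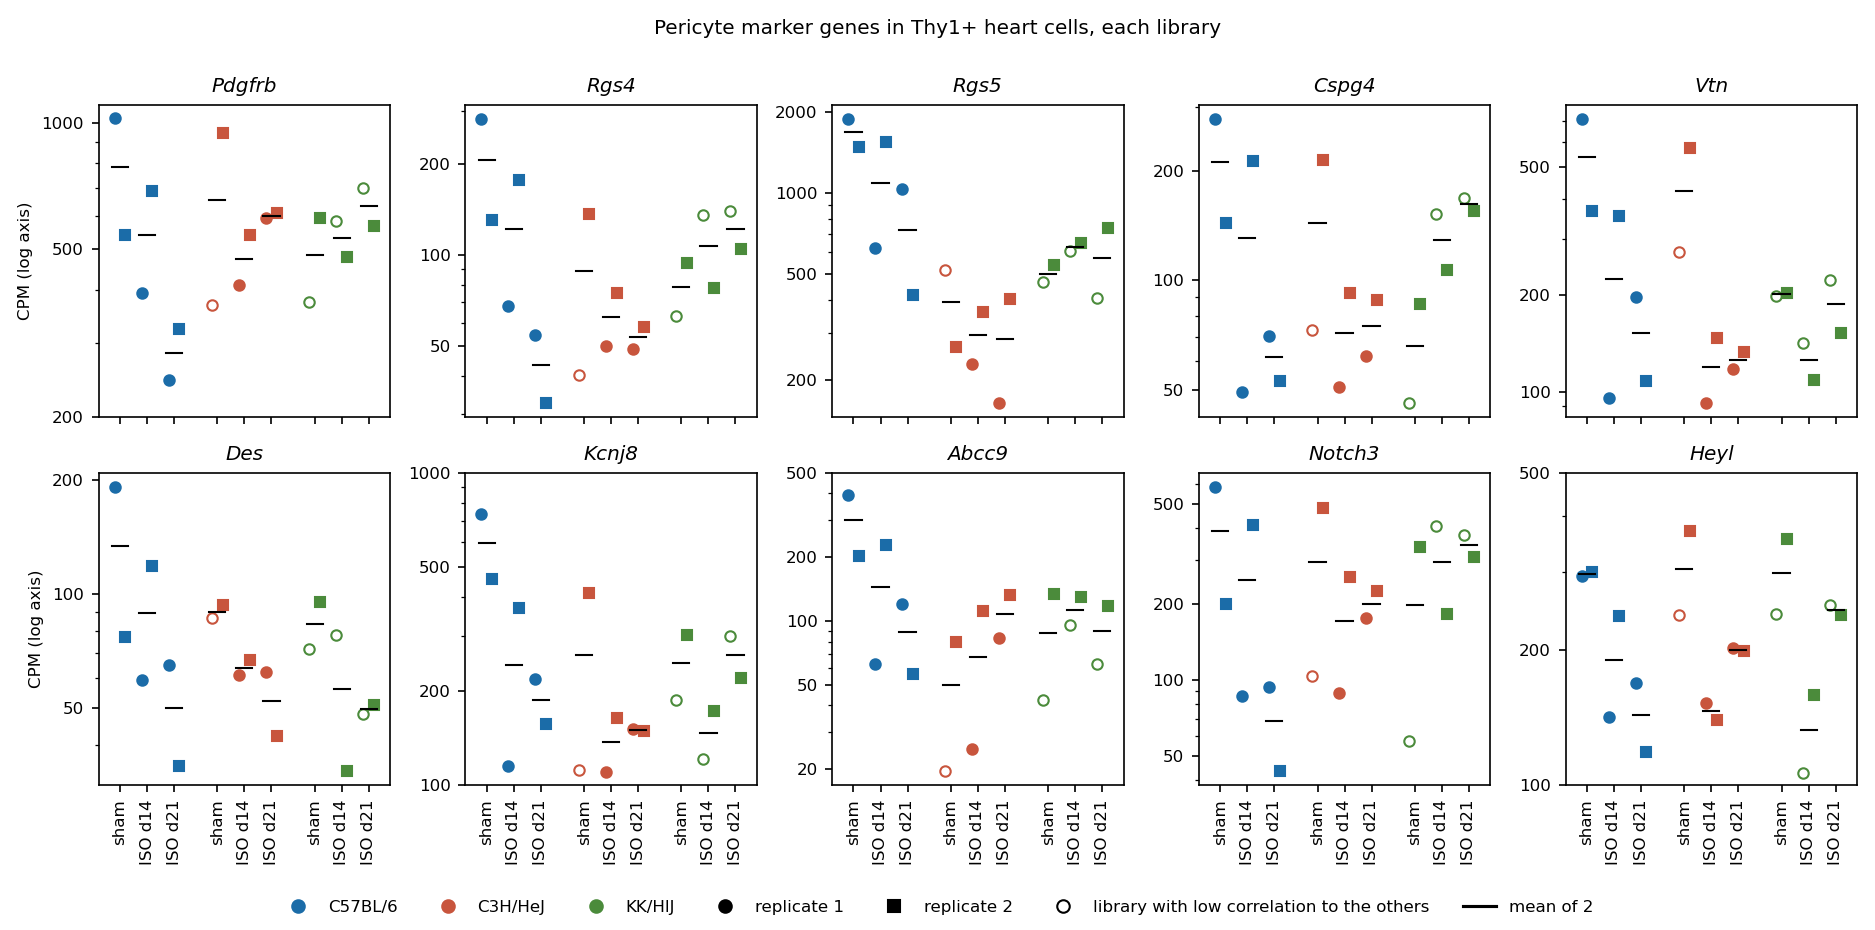
Level of each of the 10 genes in each of the 18 libraries, in CPM on a log axis, by strain and condition; circles are replicate 1, squares replicate 2, open symbols the 4 libraries with the lowest correlation to the others, and lines the mean of 2. In C57BL/6 both day 21 libraries lie below both sham libraries for all 10 genes, while in KK/HlJ the order differs from gene to gene.

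The first question was how these genes stood after ISO in each strain and at each day. None of the 10 passed edgeR's quasi-likelihood test at an adjusted p under 0.05 in any of the 21 comparisons made. In C57BL/6 at day 21 the fitted values of all 10 genes were below sham, as were those of 49.1% of all genes tested. Both day 21 libraries lay below both sham libraries for 10 of 10 genes, against 20.7% of all. The median log2 fold change of the 10 was -1.71 (all genes 0.0), and it ran from -2.06 to -1.21 when each of the 4 libraries was left out in turn. Sham replicate 1 was the highest of the 4 libraries for 9 of the 10 genes, and without it the fitted values ran from -1.59 (Rgs4) to -0.62 (Des). At an unadjusted p under 0.05, 9 of the 10 were lower (1.65% of all genes were), the exception being Abcc9 at 0.083. The adjusted p was 1 for each. By adjusted p, 0.0% of all genes passed in this comparison, DESeq2 and voom also called 0 of the 10, and a fit without the filter on low counts called 5 (Rgs4, Kcnj8, Cspg4, Vtn and Notch3). Depth moved with these groups: the sham libraries held 25356498 and 24748674 counts and the day 21 libraries 10453121 and 14871905; its part in the result was not tested.

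At day 14 in C57BL/6 the fitted values of 10 of 10 genes were also below sham (51.8% of all genes were), with a median of -0.67 (all genes -0.03). The median was -0.29 without sham replicate 1, -0.21 without day 14 replicate 1 and -1.85 without day 14 replicate 2. The libraries did not overlap for 3 of them, Vtn, Kcnj8 and Heyl, against 19.1% of all genes. The 2 libraries of this group stood far apart: replicate 2 was above replicate 1 for 10 of 10 genes, by a median of 1.53 on the log2 scale. Vtn and Kcnj8 had an unadjusted p under 0.05 (0.787% of all genes were lower by that measure), 0 of 10 passed the adjusted test (0.0% of all genes), and DESeq2 and voom called 0. Pdgfrb, Cspg4, Des and Notch3 turned sign when C57BL/6 sham replicate 1 or day 14 replicate 1 was left out, which left 7 and 8 of the 10 below sham. Both days share the sham libraries.

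In C3H/HeJ, 9 of 10 fitted values were below sham at each day (45.5% and 45.6% of all genes were) and Abcc9 was above. Vtn, Des and Heyl did not overlap sham in either day, 3 of 10 genes against 15.0% of all genes at day 14 and 16.6% at day 21. Abcc9 lay above both sham libraries at day 21 (18.5% of all genes did). The median was -0.64 at day 14 and -0.66 at day 21, and it rested on the sham libraries. Without sham replicate 1, the library of low correlation, 9 and 8 of 10 were below sham with medians of -1.22 and -1.06; without sham replicate 2 only 5 and 4 were, with medians of 0.11 and 0.21. None of the 10 passed the adjusted test at day 14 (0.0127% of all genes did) or day 21 (0.0%). At an unadjusted p under 0.05, Vtn and Heyl were lower at day 14 (0.837% of all genes) and Vtn at day 21 (2.46%). DESeq2 and voom called 0 at either day, while Vtn was called at both days without the filter on low counts and at day 21 in a fit of only the groups compared (adjusted p = 0.0395).

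In KK/HlJ the 10 genes did not stand together. At day 14, 4 fitted values were below sham (45.4% of all genes were) and 6 above, with a median of 0.23. At day 21, 3 were below (44.5% of all genes were) and 7 above, with a median of 0.14. Vtn, Kcnj8 and Heyl lay below both sham libraries at day 14 (3 of 10 genes, 10.1% of all genes), and Rgs5 and Cspg4 above (12.8% of all). At day 21 Des lay below (11.1% of all genes) and Rgs4 and Cspg4 above (14.4% of all). None passed the adjusted test at day 14 (0.0% of all genes) or day 21 (0.019%). Heyl alone had an unadjusted p under 0.05, at day 14 (1.7% of all genes were lower), and DESeq2, voom and the fit without the filter called 0. Replicate 1 of all 3 KK/HlJ groups was among the 4 libraries of low correlation. Without those, 8 of 10 were below sham at day 14 (median -0.58) and 7 at day 21 (median -0.16). Leaving out 1 library moved the day 14 count from 4 to 7, without sham replicate 1 or ISO replicate 1, and the day 21 count to 5 without sham replicate 1 and to 2 without sham replicate 2.

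**Figure D2:**
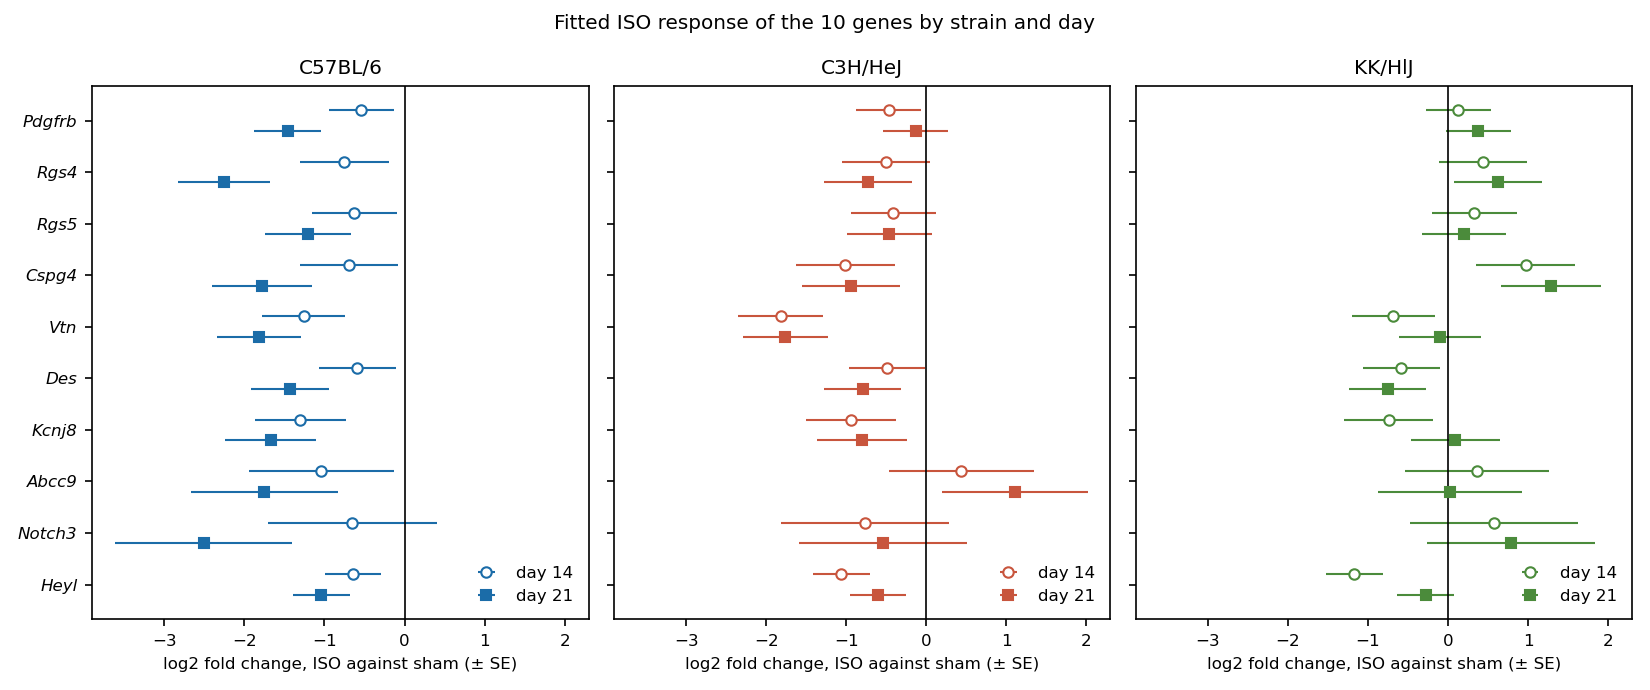
Fitted log2 fold change of ISO against sham for each of the 10 genes, with its SE, at day 14 (open circles) and day 21 (squares) in each strain. All 20 values lie below 0 in C57BL/6, those of C3H/HeJ lie below 0 except for Abcc9, and those of KK/HlJ fall on both sides of 0, with each sign subject to the left-out libraries given in the text.

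Averaged with equal weight over the 3 strains, all 10 fitted values were below sham at day 14 (median -0.29), day 21 (median -0.70) and over both days (median -0.52), against medians of 0.02, 0.03 and 0.03 for all genes, of which 48.4%, 47.6% and 47.8% were below sham. None of the 10 passed the adjusted test (0.0381%, 0.0444% and 0.0571% of all genes did), and 3, 5 and 4 had an unadjusted p under 0.05, where 2.39%, 2.16% and 3.48% of all genes were lower. Vtn and Heyl stood nearest to the threshold, both at an edgeR adjusted p of 0.0836 over both days. DESeq2 called both at day 14 and over both days and Vtn at day 21; voom called 0. Without the filter on low counts Vtn, Heyl and Kcnj8 were called at day 14 and over both days, and Vtn at day 21. Without the 4 libraries of low correlation all 10 were below sham, with medians of -0.80, -0.94 and -0.93. The day 14 median was -0.13 without C57BL/6 day 14 replicate 1, -0.73 without replicate 2, -0.14 (8 of 10 below) without C57BL/6 sham replicate 1, -0.18 (8 of 10) without KK/HlJ sham replicate 2 and -0.50 without C3H/HeJ sham replicate 1. Without C3H/HeJ sham replicate 2 the medians were -0.20 (6 of 10 below), -0.40 (9 of 10) and -0.32 (9 of 10).

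Vtn encodes vitronectin, a secreted glycoprotein of plasma and matrix that binds integrins. In C57BL/6, Vtn stood at 709 and 366 CPM in sham replicates 1 and 2, at 95.7 and 354 CPM at day 14, and at 197 and 108 CPM at day 21. In C3H/HeJ, Vtn stood at 274 and 574 CPM in sham, 92.5 and 147 CPM at day 14, and 118 and 133 CPM at day 21. In KK/HlJ, Vtn stood at 199 and 203 CPM in sham, 142 and 109 CPM at day 14, and 223 and 152 CPM at day 21. Of the 12 ISO libraries 11 lay below both sham libraries of their strain, KK/HlJ day 21 replicate 1 being the exception, a count that 0.438% of all genes reached. These libraries share 2 sham libraries in each strain. The log2 fold change was -1.26 (SE 0.52) and -1.82 (SE 0.529) at days 14 and 21 in C57BL/6 and -1.82 (SE 0.529) and -1.76 (SE 0.528) in C3H/HeJ. In KK/HlJ it was -0.68 (SE 0.516) at day 14 and -0.10 (SE 0.513) at day 21, the latter 0.15 without day 21 replicate 2. The C57BL/6 day 14 value ran from -2.49 without day 14 replicate 2 to -0.60 without day 14 replicate 1. The C3H/HeJ values were -2.25 and -2.18 without the 4 libraries of low correlation. Over both days and all strains it was -1.24 (SE 0.248, edgeR adjusted p = 0.0836), and the adjusted p ran from 7.84e-08 to 0.373 over the alternatives. Without C57BL/6 day 14 replicate 1 or replicate 2 the test called it over both days (adjusted p = 0.0407 and 0.00349), and without replicate 2 also at day 14 (adjusted p = 0.0229). The value over both days was -1.47 (adjusted p = 0.14) without the 4 libraries of low correlation.

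Des encodes desmin, the intermediate filament protein of muscle cells and pericytes. Des counted 192 and 76.9 CPM in C57BL/6 sham, 59.2 and 119 CPM at day 14, and 65.0 and 35.1 CPM at day 21. In C3H/HeJ, Des stood at 86.3 and 93.7 CPM in sham, 61.1 and 66.9 CPM at day 14, and 62.2 and 42.2 CPM at day 21. In KK/HlJ, Des stood at 71.9 and 95.1 CPM in sham, 78.0 and 34.2 CPM at day 14, and 48.4 and 51.1 CPM at day 21. Day 21 libraries lay below both sham libraries in all 3 strains, and 10 of 12 ISO libraries did, which 1.4% of all genes reached. At day 21 the log2 fold change was -1.43 (SE 0.487) in C57BL/6, -0.79 (SE 0.481) in C3H/HeJ, -0.75 (SE 0.482) in KK/HlJ and -0.99 (SE 0.279) on average (edgeR adjusted p = 0.604). The C57BL/6 value was -0.62 without sham replicate 1, and without the 4 libraries of low correlation C3H/HeJ stood at -0.83, KK/HlJ at -0.90 and the average at -1.05. Des is also a gene of cardiomyocytes, and 12 cardiomyocyte markers, led by Mb and Myl2, summed to 310.6 to 384.6 CPM in C57BL/6 sham and 208.7 to 396.2 CPM at day 21, with Ryr2 at 0 in a day 21 library. The same markers summed to 185.0 to 198.7 CPM in C3H/HeJ sham and 135.7 to 604 CPM at day 21. In KK/HlJ they summed to 214.2 to 218.0 CPM in sham and 125.4 to 143.5 CPM at day 21, where Nppa and Pln were at 0 in a library. Their part in the result was not tested.

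Cspg4 encodes the NG2 proteoglycan of the pericyte surface. In C57BL/6, Cspg4 stood at 279 and 144 CPM in sham, 49.2 and 213 CPM at day 14, and 70.3 and 52.9 CPM at day 21. In C3H/HeJ, Cspg4 stood at 73.0 and 215 CPM in sham, 51.0 and 92.2 CPM at day 14, and 61.9 and 88.2 CPM at day 21. In KK/HlJ, Cspg4 stood at 46.0 and 86.1 CPM in sham, 152 and 107 CPM at day 14, and 169 and 155 CPM at day 21. It was the only one of the 10 whose 4 KK/HlJ ISO libraries all lay above both sham libraries. Its log2 fold change at day 21 was -1.78 (SE 0.63) in C57BL/6 and 1.29 (SE 0.622, edgeR adjusted p = 0.79) in KK/HlJ. The KK/HlJ value was 0.97 (SE 0.618) at day 14. Without the 4 libraries of low correlation it was 0.30 at day 14 and 0.84 at day 21. In C3H/HeJ at day 14 the fitted value was -1.01 (SE 0.618), and its range over the alternatives was -1.58 to -0.05.

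Heyl is a transcription factor switched on by Notch receptors. Heyl stood at 293 and 299 CPM in C57BL/6 sham, 142 and 239 CPM at day 14, and 169 and 118 CPM at day 21. In C3H/HeJ, Heyl stood at 240.5 and 369.5 CPM in sham, 153 and 139 CPM at day 14, and 202 and 199.5 CPM at day 21. In KK/HlJ, Heyl stood at 242 and 355 CPM in sham, 106 and 159 CPM at day 14, and 253 and 240.0 CPM at day 21. Of the 12 ISO libraries 11 lay below both sham libraries of their strain and 0 above, with KK/HlJ day 21 replicate 1 between them. A count of at least 11 was reached by 0.438% of all genes, and these libraries share 2 sham libraries in each strain. Both day 14 libraries lay below both day 21 libraries in C3H/HeJ and KK/HlJ, and the days overlapped in C57BL/6. The log2 fold change at day 14 was -0.64 (SE 0.351), -1.06 (SE 0.353) and -1.17 (SE 0.354) in C57BL/6, C3H/HeJ and KK/HlJ, and -0.96 (SE 0.203, edgeR adjusted p = 0.121) on average. At day 21 it was -1.04 (SE 0.353) in C57BL/6, -0.60 (SE 0.35) in C3H/HeJ, -0.28 (SE 0.35) in KK/HlJ and -0.64 (SE 0.202, adjusted p = 0.868) on average. Over the alternatives these ran from -1.06 to -0.31 in C57BL/6 at day 14, from -0.87 to -0.28 in C3H/HeJ at day 21 and from -0.57 to 0.03 in KK/HlJ at day 21, where it was 0.03 without sham replicate 2. The average over both days was -0.80 (SE 0.17, adjusted p = 0.0836; 0.00134 to 0.356 over the alternatives). Without KK/HlJ sham replicate 1 or day 14 replicate 2 the test called Heyl at day 14 (adjusted p = 0.0331 and 0.0151) and over both days (0.0389 and 0.0302). Without the 4 libraries of low correlation it was also called at day 14 (-1.04, adjusted p = 0.0212) and over both days (-0.93, adjusted p = 0.012), with -1.33 and -0.87 at days 14 and 21 in C3H/HeJ.

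Notch3, the receptor of mural cells upstream of Heyl, spread much more. In C57BL/6, Notch3 stood at 582 and 199.8 CPM in sham, 86.7 and 411 CPM at day 14, and 93.9 and 43.5 CPM at day 21. In C3H/HeJ, Notch3 stood at 104 and 482 CPM in sham, 88.3 and 256 CPM at day 14, and 176 and 226 CPM at day 21. In KK/HlJ, Notch3 stood at 57.1 and 338 CPM in sham, 407 and 182 CPM at day 14, and 376 and 309 CPM at day 21. Outside C57BL/6 day 21 the ISO libraries overlapped sham in every group. The C57BL/6 day 21 value was -2.51 (SE 1.11, edgeR adjusted p = 1), or -1.54 without sham replicate 1. The ratio of Notch3 to Heyl, in CPM, ran from 0.236 in KK/HlJ sham replicate 1 to 3.82 in KK/HlJ day 14 replicate 1, and it was above 1 in 9 of the 18 libraries.

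Pdgfrb encodes the receptor for platelet-derived growth factor B. In C57BL/6, Pdgfrb stood at 1027 and 540.1 CPM in sham, 393 and 687 CPM at day 14, and 245 and 323 CPM at day 21. In C3H/HeJ, Pdgfrb stood at 368 and 945 CPM in sham, 411 and 539.7 CPM at day 14, and 592 and 609 CPM at day 21. In KK/HlJ, Pdgfrb stood at 375 and 594 CPM in sham, 583 and 478 CPM at day 14, and 698 and 567 CPM at day 21. The only ISO libraries below both sham libraries of their strain were 3 of the 4 of C57BL/6. The C57BL/6 day 21 value was -1.46 (SE 0.416, edgeR adjusted p = 1), or -0.93 without sham replicate 1. Cardiac fibroblasts also carry this receptor at some level, so its counts need not come from pericytes alone.

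Rgs4 and Rgs5 encode regulators of G-protein signalling, which shorten signals from G-protein-coupled receptors. In C57BL/6, Rgs4 stood at 283 and 131 CPM in sham, 68.2 and 177 CPM at day 14, and 54.5 and 32.6 CPM at day 21. In C3H/HeJ, Rgs4 stood at 40.2 and 137 CPM in sham, 50.4 and 75.1 CPM at day 14, and 49.1 and 58.2 CPM at day 21. In KK/HlJ, Rgs4 stood at 63.0 and 94.6 CPM in sham, 136 and 78.3 CPM at day 14, and 139.8 and 105 CPM at day 21. Both KK/HlJ day 21 libraries lay above sham and both C57BL/6 day 21 libraries below. Rgs5 stood at 1889 and 1478 CPM in C57BL/6 sham, 623 and 1546 CPM at day 14, and 1038 and 416 CPM at day 21. In C3H/HeJ, Rgs5 stood at 514 and 267 CPM in sham, 229 and 358 CPM at day 14, and 165 and 403 CPM at day 21. In KK/HlJ, Rgs5 stood at 463 and 537 CPM in sham, 609.5 and 648 CPM at day 14, and 404 and 741 CPM at day 21. All C3H/HeJ and KK/HlJ libraries, sham and ISO, thus lay below both C57BL/6 sham libraries for Rgs5. At day 21 in C57BL/6 the log2 fold change was -2.25 (SE 0.574) for Rgs4 and -1.21 (SE 0.536) for Rgs5, each with an edgeR adjusted p of 1, or -1.59 and -1.02 without sham replicate 1. The ratio of Rgs5 to Rgs4, in CPM, ran from 1.94 in C3H/HeJ sham replicate 2 to 19.0 in C57BL/6 day 21 replicate 1.

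Kcnj8 and Abcc9 encode the pore and the sulfonylurea receptor subunit of an ATP-sensitive potassium channel of mural cells. In C57BL/6, Kcnj8 stood at 738 and 456 CPM in sham, 115 and 369 CPM at day 14, and 218 and 157 CPM at day 21. In C3H/HeJ, Kcnj8 stood at 112 and 412 CPM in sham, 110.2 and 164 CPM at day 14, and 151 and 149 CPM at day 21. In KK/HlJ, Kcnj8 stood at 187 and 303 CPM in sham, 121 and 172 CPM at day 14, and 300.5 and 219.9 CPM at day 21. All 4 C57BL/6 ISO libraries and both KK/HlJ day 14 libraries lay below sham. Abcc9 stood at 393 and 203 CPM in C57BL/6 sham, 63.0 and 227 CPM at day 14, and 121 and 56.2 CPM at day 21. In C3H/HeJ, Abcc9 stood at 19.6 and 80.0 CPM in sham, 24.8 and 111 CPM at day 14, and 83.1 and 132 CPM at day 21. In KK/HlJ, Abcc9 stood at 42.3 and 134 CPM in sham, 95.3 and 130.5 CPM at day 14, and 62.8 and 118 CPM at day 21. Both C57BL/6 day 21 libraries lay below sham and both C3H/HeJ day 21 libraries above. At days 14 and 21 Kcnj8 had log2 fold changes of -1.30 (SE 0.564) and -1.67 (SE 0.57) in C57BL/6, -0.94 (SE 0.56) and -0.80 (SE 0.559) in C3H/HeJ, and -0.74 (SE 0.558) and 0.09 (SE 0.555) in KK/HlJ. Averaged over strains and days it had -0.89 (SE 0.27, edgeR adjusted p = 0.452). The C57BL/6 day 14 value was -2.38 without day 14 replicate 2 and -0.70 without day 14 replicate 1. Without C3H/HeJ sham replicate 2 the C3H/HeJ values were 0.27 and 0.41 and the average was -0.50, and without the 4 libraries of low correlation the average was -1.21 and KK/HlJ day 21 stood at -0.47. Abcc9 had -1.75 (SE 0.922, adjusted p = 1) at day 21 in C57BL/6. The ratio of Kcnj8 to Abcc9, in CPM, was 1.62 to 2.79 in the 6 C57BL/6 libraries, 1.13 to 5.73 in C3H/HeJ and 1.27 to 4.79 in KK/HlJ.

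Between days 21 and 14, C57BL/6 levels were lower at day 21 by the fitted value for 10 of 10 genes (median -0.77; 45.8% of all genes were), and the libraries of 2 genes, Pdgfrb and Rgs4, did not overlap (15.9% of all genes). The differences were -0.93 (SE 0.411) for Pdgfrb and -1.49 (SE 0.561) for Rgs4, both with an edgeR adjusted p of 0.903. Notch3, at -1.86 (SE 1.08, adjusted p = 0.903), was called without the filter on low counts (adjusted p = 0.00566) and in a fit of only the groups compared (adjusted p = 0.0036). The count of 10 rested on day 14 replicate 2, without which 4 of 10 were lower with a median of 0.12, Pdgfrb was at -0.47, Rgs4 at -0.65 and Notch3 at -0.34. Without day 21 replicate 2 the median was -0.36. None of the 10 passed the adjusted test between days in C57BL/6, C3H/HeJ or KK/HlJ (0.0% of all genes in each), and DESeq2 and voom called 0. At an unadjusted p under 0.05, 2 genes were lower in C57BL/6 (Pdgfrb and Rgs4, against 1.61% of all genes), 0 differed in C3H/HeJ and Heyl was higher in KK/HlJ (0.89, SE 0.352, or 0.60 without the 4 libraries of low correlation, against 0.431% of all genes). In KK/HlJ, Cspg4, Vtn, Kcnj8 and Heyl lay above day 14 in both day 21 libraries (4 of 10 against 11.3% of all genes), and in C3H/HeJ Pdgfrb and Heyl did (2 of 10 against 13.7%).

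Whether the strains differed in the ISO response was tested as the difference between their fold changes. At day 21 the response of KK/HlJ was above that of C57BL/6 for 10 of 10 genes, with a median difference of 1.77 (all genes 0.18, of which 55.4% were above). The differences were 3.07 (SE 0.885) for Cspg4, 2.88 (SE 0.791) for Rgs4, 1.85 (SE 0.581) for Pdgfrb and 3.30 (SE 1.52) for Notch3, with edgeR adjusted p of 0.703, 0.703, 0.703 and 0.763. At an unadjusted p under 0.05, 5 of the 10 were higher (4.17% of all genes), 0 passed the adjusted test (0.0% of all genes), DESeq2 and voom called 0, and the fit without the filter on low counts called Rgs4, Cspg4 and Notch3. The median was 1.27 (9 of 10 above) without C57BL/6 sham replicate 1. Without the 4 libraries of low correlation it was 1.47, and the values were 2.62 for Cspg4, 2.38 for Rgs4, 1.39 for Pdgfrb and 2.37 for Notch3. The response of C3H/HeJ was also above that of C57BL/6 for 10 of 10 genes at day 21 (median 0.86, all genes 0.14, of which 54.1% were above). The differences were 2.86 (SE 1.29) for Abcc9 and 1.33 (SE 0.579) for Pdgfrb, both at an edgeR adjusted p of 0.802 (0.0% of all genes passed), and these 2 had an unadjusted p under 0.05 (3.64% of all genes did so upward). The median was 0.53 (8 of 10 above) without C57BL/6 sham replicate 1, 1.93 without C3H/HeJ sham replicate 2 and 0.70 (9 of 10 above) without the 4 libraries of low correlation, and Rgs5, Vtn and Des turned sign when 1 library was left out. Without those 4 libraries Abcc9 was at 2.19 and Pdgfrb at 0.82, and without the filter on low counts Abcc9 was called (adjusted p = 0.0089). Both comparisons use the same C57BL/6 libraries and are not separate evidence. Between KK/HlJ and C3H/HeJ, Cspg4 differed by 1.98 (SE 0.874) at day 14 and 2.23 (SE 0.876) at day 21, each with an edgeR adjusted p of 1. Without C3H/HeJ sham replicate 2 these were 1.0 and 1.26, and without C3H/HeJ sham replicate 1 they were 2.53 and 2.79. At day 14, 0 of the 10 passed the adjusted test in any pair of strains (0.0% of all genes), and at most 1 had an unadjusted p under 0.05.

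Every response above is measured from the sham levels, which were compared between strains in the same way. In sham hearts 6 of the 10 genes lay lower in both KK/HlJ libraries than in both C57BL/6 libraries (Rgs4, Rgs5, Cspg4, Vtn, Kcnj8 and Abcc9, against 22.1% of all genes). In C3H/HeJ 3 did (Rgs5, Kcnj8 and Abcc9, against 22.1% of all genes). Rgs5 differed by -2.11 (SE 0.55, edgeR adjusted p = 0.396) in C3H/HeJ and -1.75 (SE 0.544, adjusted p = 0.968) in KK/HlJ, or -2.67 and -1.65 without the 4 libraries of low correlation. Abcc9 differed by -2.58 (SE 0.95, adjusted p = 0.945) in C3H/HeJ. Cspg4 differed by -1.68 (SE 0.628), Vtn by -1.42 (SE 0.523) and Kcnj8 by -1.28 (SE 0.564) in KK/HlJ, each with an adjusted p of 0.968. Without those 4 libraries Abcc9 was at -1.91 in C3H/HeJ, and Cspg4, Vtn and Kcnj8 were at -1.30, -1.40 and -0.98 in KK/HlJ. Without C57BL/6 sham replicate 1 the C3H/HeJ comparison had 5 genes below and 5 above with a median of 0.01, against 9 below and a median of -0.57 with it. The KK/HlJ comparison had 9 below in both cases, with medians of -0.80 and -1.34, and there Vtn was at -0.86, Cspg4 at -1.13 and Kcnj8 at -0.90 without that library. Without the 4 libraries of low correlation 5 were below in C3H/HeJ (median -0.26) and 9 in KK/HlJ (median -1.05). Heyl did not show this order, with sham means of 296 CPM in C57BL/6, 305 CPM in C3H/HeJ and 298 CPM in KK/HlJ. None of the 10 passed the adjusted test against C57BL/6 (0.102% of all genes did in C3H/HeJ and 0.0508% in KK/HlJ) or between KK/HlJ and C3H/HeJ (0.152%). At an unadjusted p under 0.05, 3 were lower in C3H/HeJ (2.85% of all genes), 5 in KK/HlJ (2.79%) and 0 between those strains. DESeq2 called Rgs5 and Abcc9 in C3H/HeJ (adjusted p = 0.0118 and 0.0452) and voom called 0. The fit without the filter on low counts called both in C3H/HeJ, and both with Cspg4 in KK/HlJ.

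Within a group the genes varied together, so the counts above are not counts of independent observations. In C57BL/6 sham 9 of 10 genes were lower in replicate 2 than in replicate 1, by a median of 0.95 on the log2 scale, and in KK/HlJ sham 10 of 10 were higher, by a median of 0.63. Over the 18 libraries, after subtracting each group's mean, the correlation of log2 CPM between pairs of the 10 genes had a median of 0.708 over 45 pairs. Rgs4 and Cspg4 were most alike (0.942), followed by Cspg4 and Notch3 (0.936). Rgs5 stood apart: its 9 pairs had a median of 0.337, from -0.0491 with Pdgfrb to 0.49 with Abcc9, against 0.795 for the 36 pairs without it. The 2 genes of the potassium channel correlated at 0.829, Rgs4 with its neighbour Rgs5 at 0.239, and Notch3 with Heyl at 0.615. In C3H/HeJ sham, Rgs5 was lower in replicate 2 by 0.95 while the 9 others were higher. These are descriptions of libraries in 9 pairs that share strain and treatment. All genes of a library share its depth, which differed within some pairs. It was 7230741 and 23832629 counts in KK/HlJ day 14, but 25356498 and 24748674 in C57BL/6 sham.

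**Figure D3:**
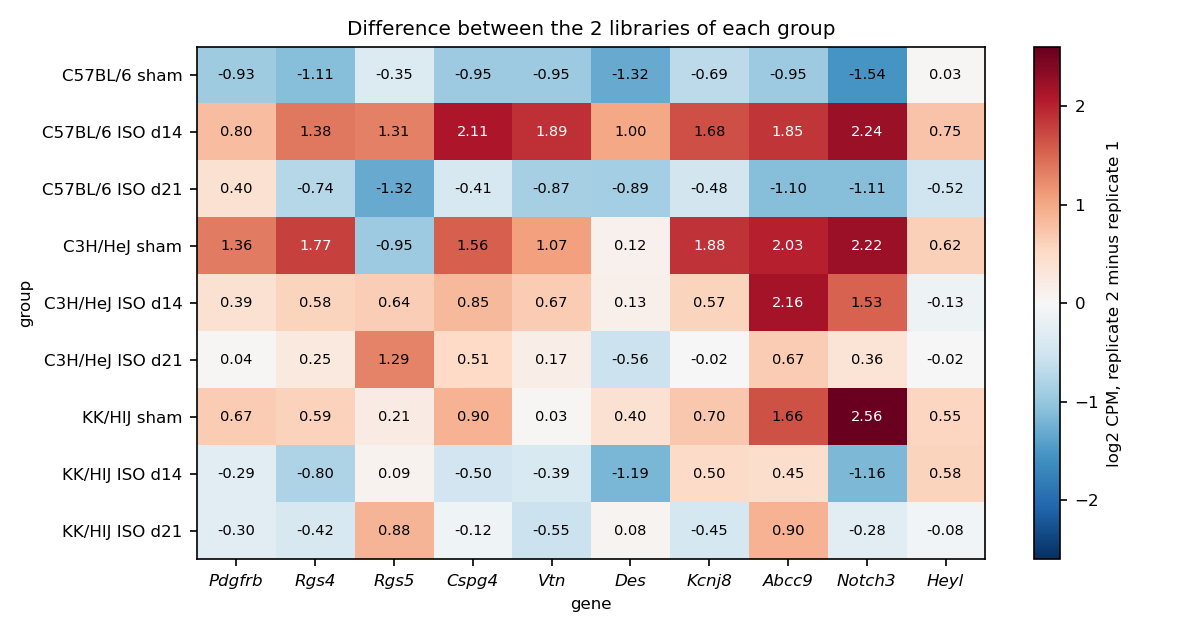
Difference between the 2 libraries of each group for each gene, in log2 CPM, replicate 2 minus replicate 1; red is higher in replicate 2 and blue is lower. All 10 genes are higher in replicate 2 in C57BL/6 day 14 and KK/HlJ sham, 9 of 10 share a sign in 4 other groups, and the 2 later KK/HlJ groups and C3H/HeJ day 21 are more mixed.

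Among 10037 genes with a mean of at least 5 CPM that are none of the 10, those most alike in level to their average over the 18 libraries were Atp1b2 (r = 0.894), Gprc5c (0.883), Mrvi1 (0.875), Egflam (0.843), Esam (0.842), Casq2 (0.837), Tnfrsf21 (0.829), Steap4 (0.819), Aoc3 (0.811) and Itga7 (0.811). Steap4 is in the list of other pericyte genes and Esam, an adhesion molecule, in that of endothelial genes; the other 8 were in no list. Of the 10 genes themselves, Rgs4 was most like the average of the other 9 (r = 0.903) and Rgs5 least (r = 0.51).

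A further 16 pericyte genes were below sham at day 21 in C57BL/6 by the fitted value in 16 of 16 cases (49.1% of all genes were). Their median was -1.20. Both libraries lay below both sham libraries for 12 of the 16 (20.7% of all genes). At an unadjusted p under 0.05, 6 were lower (1.65% of all genes were), and 0 passed the adjusted test. They summed to 1707 to 2449 CPM in C57BL/6 sham, replicate 1 being the higher, and 958.5 to 1094 CPM at day 21. This list was also chosen with earlier results of these data known, and it was read in the same libraries as the 10 genes. The 16 are therefore not separate evidence. The 2 most abundant, Anpep (an aminopeptidase) and Ndufa4l2 (a mitochondrial protein of pericytes), had log2 fold changes of -0.08 (SE 0.332; from -0.45 to 0.22 over the alternatives) and -0.70 (SE 0.365). In KK/HlJ at day 21, 8 of the 16 were below sham and 8 above (median -0.08, with 44.5% of all genes below). Both libraries lay below sham for 2 and above for 1 (11.1% and 14.4% of all genes). In C3H/HeJ at day 21, 9 were below and 7 above (median -0.40, with 45.6% of all genes below). There both libraries lay below sham for 6 and above for 1 (16.6% and 18.5% of all genes). At an unadjusted p under 0.05, 4 were lower in C3H/HeJ (2.46% of all genes) and 0 in KK/HlJ. Smooth muscle shares many of these genes. Of its 14 listed genes 10 were below sham at day 21 in C57BL/6 (median -0.67, with 49.1% of all genes below). Both libraries lay below both sham libraries for 7 (20.7% of all genes). The 14 summed to 1800 to 2920 CPM in sham and 1216 to 2087 CPM at day 21. Acta2 (smooth muscle actin) stood at -0.97 (SE 0.6) and Cald1 (caldesmon) at 0.33 (SE 0.855), and 0 of the 14 passed the adjusted test. In KK/HlJ at day 21, 12 of the 14 were below sham and 2 above (median -0.59, with 44.5% of all genes below). Both libraries lay below sham for 6 and above for 2 (11.1% and 14.4% of all genes). The 10 pericyte genes there had 3 below and 7 above. In C3H/HeJ at day 21, 9 of the 14 were below and 5 above (median -0.31, with 45.6% of all genes below). There both libraries lay below sham for 4 and above for 2 (16.6% and 18.5% of all genes). None of the 14 was at 0 in a C57BL/6 library, and the part of smooth muscle RNA in the result was not tested.

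Other genes of the same signalling pathways stood on both sides of sham. Of 19 genes of platelet-derived growth factor and Notch signalling, 14 were below sham and 5 above at day 21 in C57BL/6 (49.1% of all genes were below). Both libraries lay below both sham libraries for 8 (20.7% of all genes) and above for 3 (2576 of 15762 genes), and 0 passed the adjusted test. At the same day 3 were below and 16 above in C3H/HeJ (45.6% of all genes were below). In KK/HlJ 7 were below and 12 above (44.5% of all genes were below). The 2 most abundant were Pdgfra, the receptor of fibroblasts, at -0.24 (SE 0.441) and Notch2 at -0.33 (SE 0.524) in C57BL/6. Of 7 relatives of the Rgs and channel genes, Rgs2 and Rgs3 were most abundant, with means of 30.9 and 15.3 CPM. Rgs2 stood at 0.20 (SE 0.582; from -0.72 to 0.77 over the alternatives) and Rgs3 at -1.0 (SE 1.07) at day 21 in C57BL/6. Kcnj11 and Abcc8, subunits of the channel form of pancreas and neurons, had medians of 0.0 CPM over all libraries and reached at most 2.29 and 1.45 CPM. Both genes were at 0 in both libraries of C57BL/6 day 14, of KK/HlJ sham and day 14, and of each C3H/HeJ group, sham included.

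Endothelial markers, the partners of pericytes in capillaries, summed to 477.4 to 657.4 CPM in C57BL/6 sham and 478.6 to 489.4 CPM at day 21. Of 12, 11 were below sham by the fitted value at day 21, with a median of -1.25 (49.1% of all genes were below). At day 14 in C57BL/6 10 were below, with a median of -1.05 (51.8% of all genes were below). Both day 21 libraries lay below both sham libraries for 5 (20.7% of all genes) and above for 1, Ly6c1, with Cldn5 at 0 in a day 21 library. Ly6c1 and Tek, the angiopoietin receptor, were the most abundant of the 12 and made up the largest part of the sum. Ly6c1 stood at 1.0 (SE 0.379) and Tek at -0.01 (SE 0.402, from -0.33 to 0.39 over the alternatives). At day 21 in C3H/HeJ and in KK/HlJ 10 of the 12 were above sham by the fitted value (7919 and 8132 of 15762 genes were). Both libraries lay above both sham libraries for 4 in C3H/HeJ (18.5% of all genes) and 6 in KK/HlJ (14.4%). The part of endothelial RNA in the pericyte result was not tested. The sum was highest in C3H/HeJ day 21 replicate 1, at 1529 CPM, against 606 CPM in replicate 2 and 513.1 and 665.9 CPM in sham. In replicate 1 macrophage markers (204.5 CPM) and cardiomyocyte markers (604 CPM) also peaked. The summed level of the 10 pericyte genes in that library, 1660 CPM, lay below that of both sham libraries (1831 and 3575 CPM). Resting fibroblast genes, the bulk of the sorted cells, had 4 of 15 below sham at day 21 in C57BL/6 (median 0.10, with 49.1% of all genes below). Schwann and glial markers, led by Cnp and Cdh19, summed to 178.2 to 194.5 CPM in C57BL/6 sham and 153.9 to 183.8 CPM at day 21, and mesothelial markers, led by Upk3b and Msln, to 312.6 to 419.0 CPM and 434.9 to 531.4 CPM. Macrophage markers (Lyz2, Csf1r) summed to at most 35.9 CPM and T cell markers (Trac, Cd4) to at most 11.2 CPM in the 6 C57BL/6 libraries.

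**Figure D4:**
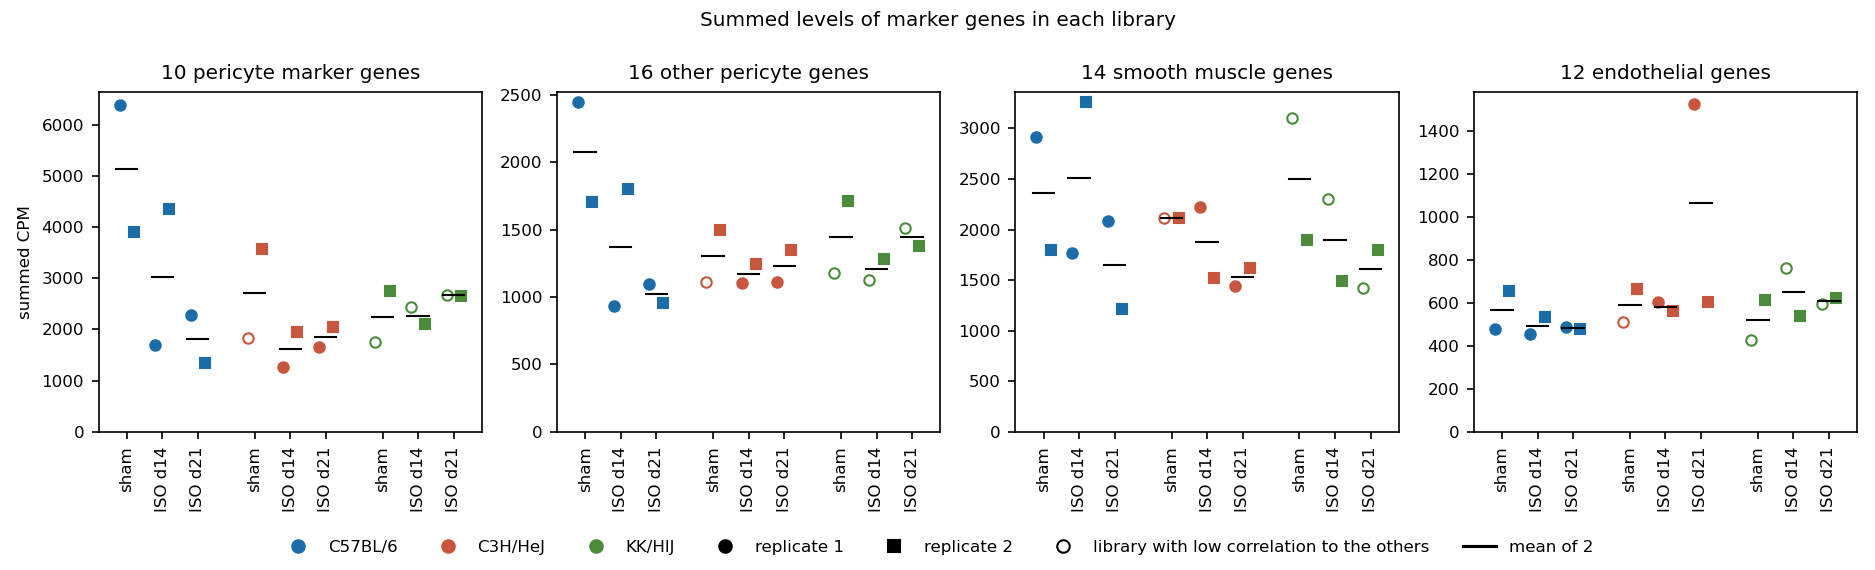
Summed CPM of the 10 pericyte genes, 16 other pericyte genes, 14 smooth muscle genes and 12 endothelial genes in each library, with symbols as in the plot of single genes. Both pericyte sums are highest in C57BL/6 sham replicate 1 (6385 and 2449 CPM) and lower at day 21 in C57BL/6, and the endothelial sum stands out in C3H/HeJ day 21 replicate 1 (1529 CPM).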

How the data were processed

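Counts of reads per Ensembl gene were deposited by the authors for each of 18 libraries; per the submitters' processing notes reads were checked with FastQC, aligned to mm10 with STAR 2.5.3a and analysed with edgeR. Libraries were stranded mRNA libraries, per the labels. The counting tool, its use of strand and the annotation release were not given in the sources used here. Identifiers were matched to GENCODE M21 symbols (53237 of 53342; the other 105 held 0.00159% of reads). Groups followed strain, treatment and day. The counts were fitted with edgeR 4.0.16 in R 4.3.3 (TMM scaling, filterByExpr, robust quasi-likelihood, all 9 groups in 1 fit, 9 residual degrees of freedom), and p-values were adjusted by Benjamini-Hochberg over 15762 genes at a threshold of 0.05. SE is the log2 fold change divided by the root of F. Library correlations used log2 CPM with a prior count of 2. Alternatives were RLE scaling, DESeq2 1.42.0, no filter, a replicate block, a fit of only the groups compared and each library left out. Added after seeing the data were limma 3.58.1 voom with quality weights and a fit without the 4 libraries of lowest correlation. The code was tested on simulated data. The 10 genes and all lists were chosen with earlier results of these data known. The text names all 10, the 10 most alike by correlation among genes with a mean of at least 5 CPM, and the 2 most abundant of each list. Genes named as being at 0 were chosen after their values were seen. Totals of 7230741 to 26280685 counts put counting error well under the spread between libraries.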

Additional observations from a re-analysis of the deposited data

How the results depend on the processing

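The counts of the 10 genes passing the adjusted test were 0 in every comparison of the main analysis, and with the replicate block, RLE scaling and voom they were also 0. Without the filter on low counts they were 5 in C57BL/6 at day 21, 1 in C3H/HeJ at day 14 and 1 at day 21 (Vtn), 3, 1 and 3 for the mean over strains at day 14, day 21 and both days, 1 between the days in C57BL/6, 1 and 3 for the day 21 responses of C3H/HeJ and KK/HlJ minus C57BL/6, and 2 and 3 for sham C3H/HeJ and KK/HlJ against C57BL/6. With DESeq2 they were 2, 1 and 2 for the mean over strains and 2 for sham C3H/HeJ against C57BL/6. With only the groups compared they were 1 in C3H/HeJ at day 21 and 1 between the days in C57BL/6. Without the 4 libraries of lowest correlation they were 1 for the mean at day 14 and 1 for both days. Leaving out 1 library gave 0 to 1 for the mean at day 14 and over both days and 0 elsewhere. The cause was not tested. Some named fold changes turned sign without 1 library. Kcnj8 ran from -1.58 to 0.27 and from -1.44 to 0.41 at days 14 and 21 in C3H/HeJ and from -0.22 to 0.48 at day 21 in KK/HlJ (-0.47 without the 4 libraries). In KK/HlJ at day 21 Vtn ran from -0.42 to 0.15 and Heyl from -0.53 to 0.03. In C57BL/6 at day 21 Anpep ran from -0.45 to 0.22, Pdgfra from -0.48 to 0.04, Rgs2 from -0.72 to 0.77 and Tek from -0.33 to 0.39, and Tek was 0.02 with RLE scaling, DESeq2, voom or the replicate block. The mean over both days has no fit of only the groups compared.

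No pairing by replicate number was seen: deviations from group means of same-numbered samples of 1 strain correlated at -0.102 to 0.163 over 9 pairs. Each mean rests on 2 libraries, so the values cannot exclude pairing. The 4 libraries of lowest correlation were all replicate 1. With the replicate block the median log2 fold change of the 10 genes was -1.71 in C57BL/6 at day 21 and -0.86 at day 14, and 0 genes passed in either. Leaving out 1 library turned the sign of 0 of the 10 genes in C57BL/6 at day 21, 4 at day 14, 6 at each day in C3H/HeJ, and 4 and 5 at days 14 and 21 in KK/HlJ.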
